A study of Homo sapiens with 6 samples.

Results

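The regions described here are E2F7 peaks called in quiescent IMR90 cells that had no counterpart in either of the other peak lists analysed here. E2F7 binding was mapped in IMR90, a fibroblast line from human fetal lung, by ChIP-seq, in which the DNA recovered with an antibody against the factor is sequenced. A peak of the quiescent list on chromosomes 1 to 22 or X was called quiescent-only when it overlapped, by 1 bp or more, no peak from growing cells and no peak from senescent cells with RB knockdown. This held for 4409 of 10225 quiescent peaks, or 43.1% (95% exact interval 42.2% to 44.1%). The 3 lists together held 63334 peaks. Of the 4409 members, 988 contained at least 50 ChIP tags and 3421 contained fewer.

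The quiescent and growing cells carry no treatment in the labels, and the labels do not say how quiescence was brought about. The third group held cells made senescent by Ras and infected with an RB hairpin. It therefore differs from the quiescent cells in cell state, oncogene and RB level at once. A protocol text common to all samples describes infection with an ER-Ras vector and hairpins and collection 4 days after tamoxifen. It does not say whether the growing and quiescent cells carried the vector. Each ChIP used 10 µg of E2F7 antibody, and each state was represented by 1 library. Senescent cells with intact RB enter no comparison, and an E2F7 ChIP from senescent cells with an E2F7 hairpin was not analysed here.

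E2F7 is an atypical E2F transcription factor. It binds DNA through a pair of its own DNA-binding domains, without a DP partner and without the pocket-protein binding segment of the classical E2Fs, and it is known as a repressor of genes for the G1/S transition and DNA replication. Quiescence is the reversible resting state outside the cell cycle, in which fibroblasts keep such genes silent, mostly through E2F4 with the pocket protein p130 in the DREAM complex. RB is the pocket protein best known for silencing E2F targets in senescence.

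Because each state had 1 library, differences between states carry no replicate error and were not tested. The members were chosen by the presence of a call in the quiescent list and by the absence of an overlapping call in the other lists. Their tags, widths and scores come from those same calls and are given as descriptions. The libraries held 25212239 tags after the caller's duplicate limit in quiescent cells, 22628990 in growing cells and 23379790 with RB knockdown. All were called against the same control library, of 22107968 tags. A region missing from a list had no call above the threshold there, and the tag level of the other libraries at these positions was not analysed here. Genes were not assigned, and no sequence is shown, because peak positions are on the hg18 build and the annotation at hand is of GRCh38.

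Quiescent-only peaks were numerous but small. They covered 4.30 Mb and held 172476 tags, 24.9% of all tags in quiescent peaks, although they made up 43.1% of the peaks. The median member held 32 tags (quartiles 23 and 47) and was 888 bp wide (690 and 1127 bp). The other 5816 quiescent peaks had a median of 69 tags (47 and 105) and of 1280.5 bp. Fold enrichment, which the authors give as ChIP tags relative to local background, differed less, with a median of 6.29 (5.35 and 7.45) in members and 6.41 (5.18 and 8.09) in the others. The range of fold enrichment was 2.84 to 20.46 in members and 2.66 to 43.84 in the others. Members thus differed from the other quiescent peaks more in width and tags than in typical fold enrichment, and they lacked the upper end of all 3 scales.

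Few members met strict thresholds. The false discovery rate (FDR), which the caller estimated by exchanging ChIP and control, was at most 5% for 278 of the 4409 members, or 6.31% (exact interval 5.61% to 7.06%). In the whole quiescent list 17.8% of peaks met it. The significance score, 10 times the negative log10 of the caller's p, reached 100 in 518 members (11.7%), against 27.3% of all quiescent peaks. Fold enrichment reached 10 in 207 members (4.69%), against 9.18%. At least 50 tags were held by 22.4% of members, against 50.5% of all quiescent peaks. These shares restate the choice of members and nothing is read from them. The median FDR was 35.9% in members, 20.4% in the 988 members with at least 50 tags and 17.6% in the other quiescent peaks.

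**Figure D1:**
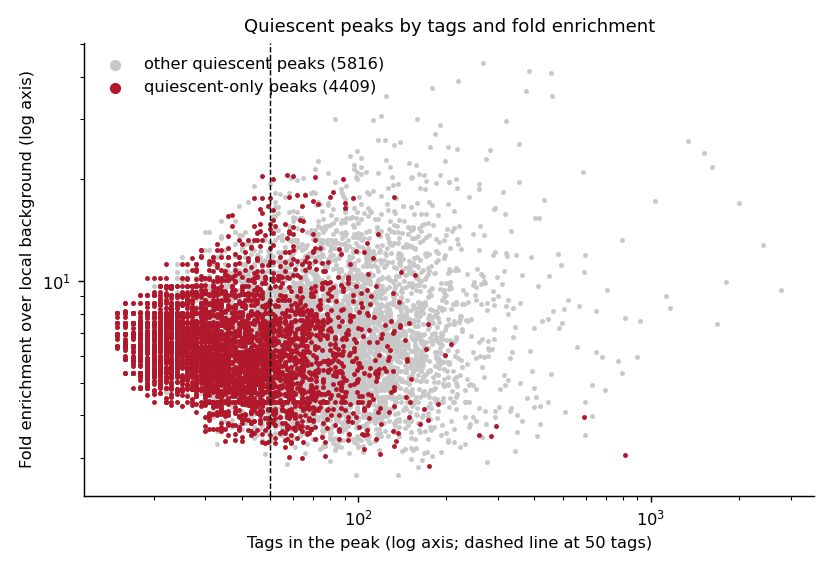
Each point is 1 quiescent peak, placed by its tags (horizontal, log axis) and its fold enrichment over local background (vertical, log axis), with quiescent-only peaks in red and other quiescent peaks in grey. Members crowd to the left of the dashed line at 50 tags, where 3421 of the 4409 lie, and reach at most 20.46-fold.

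The share of quiescent peaks that were quiescent-only fell steeply with their size. Of peaks with at least 15 and under 25 tags, 87.5% were quiescent-only (exact interval 85.7% to 89.1%). The share was 70.5% from 25 to under 35 tags, 49.7% from 35 to under 50, 30.9% from 50 to under 75 and 15.4% from 75 to under 100. It was 9.07% from 100 to under 150 tags and 2.64% (1.55% to 4.19%, 17 of 644) at 150 tags or more. Width showed the same slope, from 88.7% of peaks under 600 bp to 5.50% of peaks of 3000 bp or more. A wide peak meets an overlap of 1 bp more easily than a narrow one. When peaks were instead called shared if their summits lay within 200 bp, a rule that does not depend on width, the share without a partner fell from 90.5% below 25 tags to 26.5% (24.04% to 29.1%) from 75 to under 100 tags. Above that it was 23.4% (20.9% to 26.1%) from 100 to under 150 tags and 23.1% (19.9% to 26.6%) for 150 tags or more.

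Along fold enrichment the share did not fall at every step. It was 33.5% below 4-fold, rose to 48.0% between 5-fold and 6-fold and 48.6% between 6-fold and 8-fold, and dropped to 24.02% between 10-fold and 15-fold. At 15-fold or more 29 of 198 peaks were quiescent-only, 14.6% (10.0% to 20.4%). Among the 100 quiescent peaks with the highest significance score 0 were quiescent-only (upper limit of the exact interval 3.62%, counting error only). Among the highest 500 there were 24 members (4.80%), and among the highest 1000 there were 97 (9.70%). Ranked by fold enrichment, 9 of the highest 100 and 83 of the highest 500 were members. Ranked by tags, the numbers were 2 and 14. The best-scoring member stood at place 148 of the quiescent list.

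**Figure D2:**
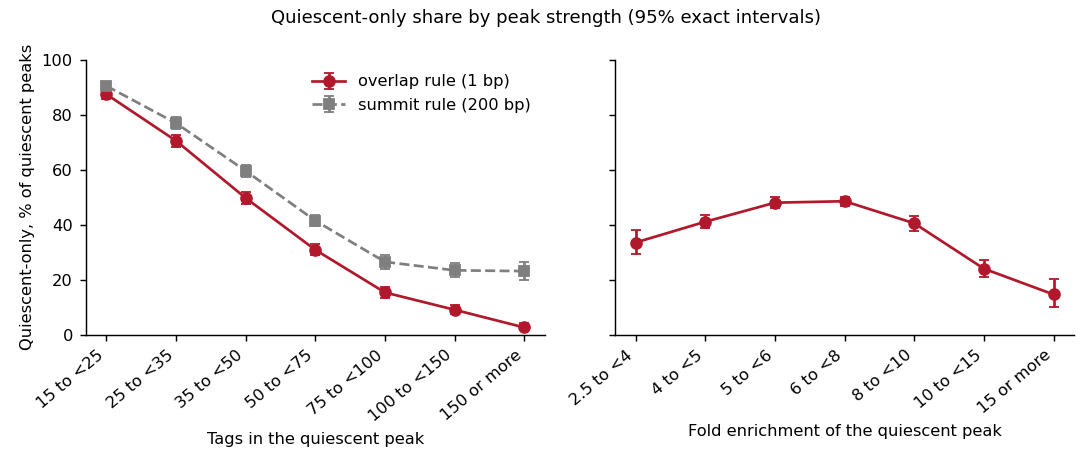
Points give the percentage of quiescent peaks that were quiescent-only in bins of tags (left) and of fold enrichment (right), with 95% exact binomial intervals that cover counting error only; red uses overlap of 1 bp and grey uses summits within 200 bp. On the left the red share falls from 87.5% to 2.64%, and on the right it peaks at 48.6% and ends at 14.6%.

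Few members sat within 100 bp of the edge of the rule. The nearest peak of another list lay within 50 bp of 12 members, within 100 bp of 22 and within 500 bp of 179. On the other side, 13 shared quiescent peaks overlapped their partner by at most 50 bp, 22 by at most 100 bp and 730 by at most 500 bp. Overlap is counted in shared bases. The last number can therefore include partners narrower than 500 bp that lie wholly inside a quiescent peak, and it is no count of borderline cases. The closest member, on chromosome 18 from 75228845 to 75229833, had 28 tags and 7.09-fold enrichment and lay 11 bp from an RB knockdown peak. The member on chromosome 17 from 43126249 to 43127844, with 65 tags, an FDR of 1.72% and 6.97-fold enrichment, lay 22 bp from a growing peak of 54 tags. At the limit of 50 tags there was no step in number, with 43 members at 49 tags, 49 at 50 tags and 52 at 51 tags.

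The tallest quiescent-only peaks were of moderate width and low FDR. The 10 members with the highest fold enrichment among those with at least 50 tags ranged from 17.67-fold to 20.46-fold, from 51 to 89 tags and from 877 to 1375 bp, all with an FDR of at most 0.28%. The 29 members at 15-fold or more had a median width of 1026 bp, between the 888 bp of all members and the 1280.5 bp of the other quiescent peaks. In the median they lay 32316 bp from the nearest RB knockdown peak, against 15936 bp for all members. Their summits sat 3.97% of the peak width from the midpoint in the median, against 9.95% for all members, although 3 of the 10 tallest exceeded the latter, with 20.7% on chromosome 6, 16.96% on chromosome 9 and 11.0% on chromosome 12.

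Chromosome 8 carried the tallest pair. The peak from 94149521 to 94150397 had 57 tags and 20.46-fold enrichment, and the peak from 94485379 to 94486378 had 60 tags and 20.35-fold. The former had another member 9210 bp away, from 94159607 to 94160685, with 90 tags and 16.34-fold. That neighbour had the highest significance score of all members, 429.76. The nearest RB knockdown peaks to these 3 members were 34070 to 125205 bp away and the nearest growing peaks 74441 to 199396 bp away.

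On chromosome 13 the member from 77305449 to 77306330 had 89 tags, 19.93-fold enrichment and the next highest score, 391.43. The nearest RB knockdown peak, 31568 bp away, held 14 tags and had an FDR of 5.03%. On chromosome 6 a member from 55666702 to 55668076 held 71 tags at 20.17-fold, and a member from 92627013 to 92628155 held 58 tags at 17.67-fold. The latter was the most isolated of the 10 from the other states, 155636 bp from an RB knockdown peak and 1069044 bp from a growing peak. Chromosome 12 was similar, with a member from 81348170 to 81349341 of 62 tags and 17.96-fold that lay 153174 bp and 558129 bp from those lists.

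Other tall members had an RB knockdown call close by, though not under them. On chromosome 9 the member from 18716394 to 18717372, with 82 tags and 18.24-fold enrichment, lay 2121 bp from an RB knockdown peak of 15 tags. On chromosome 14 the member from 53483532 to 53484695, with 66 tags and 17.91-fold, lay 3696 bp from an RB knockdown peak of 19 tags. On chromosome 2 the member from 43439104 to 43440209, with 96 tags and 17.54-fold, had an RB knockdown peak of 54 tags at 1171 bp. On chromosome 5 the member from 1016755 to 1017858, with 105 tags and 12.12-fold, had an RB knockdown peak of 94 tags at 5256 bp. The remaining members among the 10 tallest were on chromosome 17 (68535900 to 68536877, 51 tags, 19.93-fold) and chromosome 3 (52445407 to 52446432, 80 tags, 17.68-fold), 14844 and 17613 bp from an RB knockdown peak.

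The members with the most tags were broad. The 115 members with at least 100 tags had a median width of 2214 bp and a median fold enrichment of 5.41. Of these, 47 had less than 5-fold enrichment, 60 had from 5-fold to under 10-fold and 8 had 10-fold or more. Among all 1724 quiescent peaks with at least 100 tags, 410 had less than 5-fold. The 47 members under 5-fold had a median width of 2526 bp and a median FDR of 27.2%, and their summits sat 18.2% of the width from the midpoint in the median. The limits of 100 tags and 5-fold were chosen after the values were seen. Across all members tags followed width (Spearman rho = 0.92, n = 4409) and not fold enrichment (rho = -0.18), which describes peaks of 1 library.

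The extreme was on chromosome 1 from 141476809 to 141484552, the widest member at 7744 bp, with 816 tags, 3.05-fold enrichment and an FDR of 50.1%. It directly bordered the longest stretch without a peak in any list on that chromosome, 20.5 Mb long. Such long stretches include the unsequenced DNA at centromeres and on the short arms of acrocentric chromosomes. On chromosome 17 the member from 22286979 to 22292440 held 591 tags at 3.96-fold, with an FDR of 0%. It lay 26.9 Mb from that chromosome's longest peak-free stretch. That stretch was only 1.17 Mb long, the shortest of all chromosomes, and whether it marks the centromere was not checked. The distance of 26.9 Mb therefore does not show that the member lay away from the centromere. On chromosome 16 the member from 33880757 to 33884761 held 295 tags at 3.73-fold and lay 1.18 Mb from that chromosome's longest peak-free stretch. The members on chromosome 10 (127567167 to 127571884, 285 tags, 3.47-fold) and chromosome 1 (222265883 to 222269634, 258 tags, 3.51-fold) were far from such stretches, at 69.8 and 80.8 Mb. Within 1 Mb of the edge of a longest peak-free stretch lay 12 members with at least 50 tags, with a median of 92.5 tags and 4.055-fold. The other members with at least 50 tags had medians of 64 tags and 5.85-fold. In all, 1.18% of members (0.882% to 1.54%) and 1.12% of the other quiescent peaks (0.864% to 1.42%) lay that near. These numbers do not count peaks at a centromere that the longest peak-free stretch misses.

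Most members had no other member within 20 kb, and 1 group was far larger than any other. Few neighbours of the same set were not particular to members. Within 10 kb, 10.5% of members had another member, and 17.3% of the other quiescent peaks had another of their own, larger set. A quiescent peak of either kind lay within 50 kb of 48.5% of members. When members were joined where at most 20 kb separated them, 3665 members (83.1%) stayed single, and there were 300 pairs, 31 triplets and 7 groups of 4. The next size was 1 group of 23. That group spanned 151 kb of chromosome 15, from 78879238 to 79029923. The 20 kb were chosen after the lists were seen. In bins of 1 Mb the same place led, with 22 members from 78422732 to 79000032 against at most 10 in any other of 3031 bins, whose median was 1.

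The group on chromosome 15 held peaks of widely varying width, mostly at moderate fold enrichment. Its 23 members had 23 to 156 tags (median 45), were 711 to 3840 bp wide (median 1264 bp) and had 3.69-fold to 10.4-fold enrichment (median 5.53). Together they covered 26.1% of the stretch. At least 50 tags were held by 10 of them, and 7 had an FDR of at most 5%. The strongest was the peak from 78882810 to 78886649, with 156 tags, 10.4-fold enrichment and a score of 338.16. Only 237 bp separated it from a member of 132 tags and 4.87-fold, from 78879238 to 78882573. Further along came members of 128 tags (78959038 to 78962392, FDR 0.3%), 110 tags (79023502 to 79026454, FDR 0.2%) and 108 tags (79027308 to 79029923, FDR 0.31%).

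The same stretch was not free of calls in the other states. It contained 14 RB knockdown peaks, 6 growing peaks and 7 quiescent peaks that overlapped 1 of these. They were not spread evenly among the members. The first call of another state began 30.2 kb into the stretch, after 3 members, and no call of another state lay among the last 4 members, from 79011902 to 79029923. Counting peaks outside the stretch, the nearest RB knockdown peak to a member lay 446 to 7009 bp away. The 2 members at the start of the group, with 132 and 156 tags, lay 64477 and 60401 bp from the nearest growing peak.

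**Figure D3:**
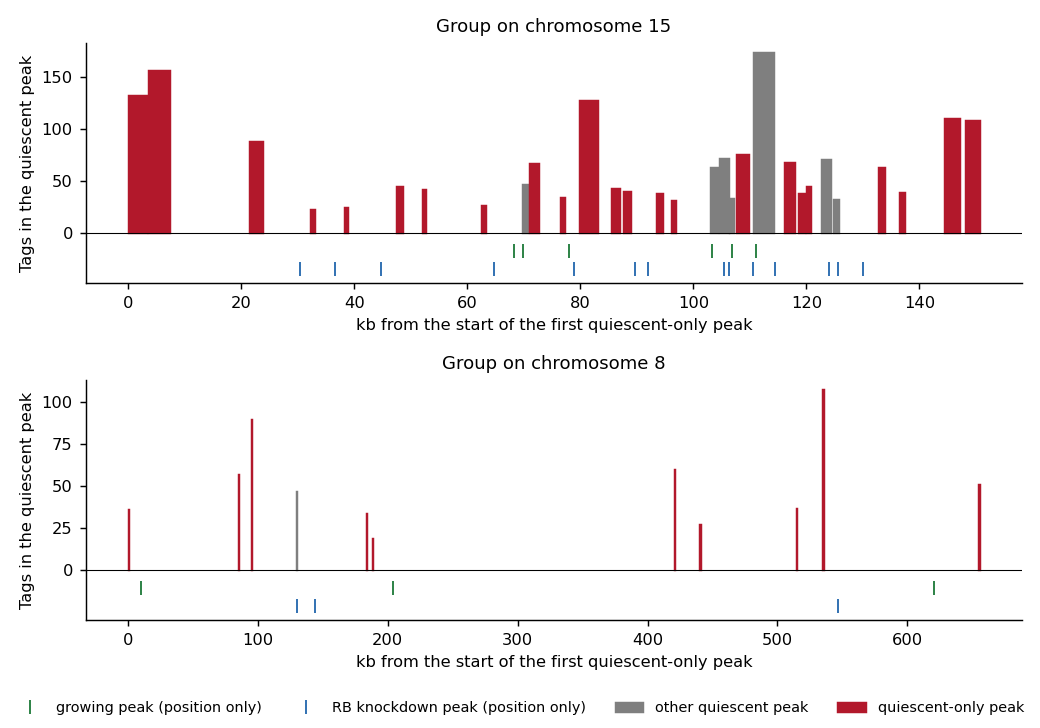
Bars show tags (vertical) of quiescent-only peaks in red and other quiescent peaks in grey, drawn at their width along the distance in kb from the start of the first member, for the groups on chromosome 15 (top) and chromosome 8 (bottom). Ticks under the axis mark only the positions of growing (green) and RB knockdown (blue) peaks; on chromosome 15 the 151 kb hold 23 members and 14 RB knockdown peaks, none of these among the first 3 or the last 4 members, and on chromosome 8 the 656 kb hold 10 members and 3 RB knockdown peaks.

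The bin on chromosome 8 that held the tallest peaks, described further because of them, had 10 members, 5 other quiescent peaks, 3 growing peaks and 14 RB knockdown peaks. The 656 kb from its first to its last member contained 1 of those other quiescent peaks and 3 of the RB knockdown peaks. Its members held 19 to 108 tags and had 4.56-fold to 20.46-fold enrichment, with a median of 9.64-fold. The FDR was 5% or lower for 5 of the 10. Besides the 3 already described these were the peak from 94599658 to 94601245, with 108 tags and 10.47-fold, and the peak from 94719825 to 94721180, with 51 tags and 10.17-fold.

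The bin from 53000000 on chromosome 14 also held 10 members, 3 of them with an FDR of at most 5%, beside 7 other quiescent and 15 RB knockdown peaks. On chromosomes 2, 9 and X bins with 10 members each held 1 member at that FDR, and a bin on chromosome 21 held 0. Across all bins 1924 (63.5%) held a member. Bins with 5 or more members numbered 176 and held 24.2% of all members. Counts per bin correlated at Pearson r = 0.42 between members and other quiescent peaks, and at 0.76 between other quiescent and RB knockdown peaks (n = 3031 bins, which share library, mappability and base composition). Members and RB knockdown peaks correlated at 0.42. By rule the other quiescent peaks bring partners into their bins, while members have none. Of the other quiescent peaks, 4402 overlapped an RB knockdown peak only and 1208 a peak of both lists. The difference between these correlations is thus in part built into the rule, and nothing is read from it.

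Although members overlapped no other call, most had one in the neighbourhood. The nearest RB knockdown peak lay 15.9 kb away in the median (quartiles 5.84 and 39.8 kb), and the nearest growing peak 82.6 kb. The RB knockdown list, with 43643 peaks against 9466, was the nearer for 80.3% of members. A peak of either list lay within 10 kb of 42.3% of members (40.9% to 43.8%) and within 1 kb of 7.67%. Members with at least 50 tags were nearer to the RB knockdown list, with a median of 11.6 kb, and as far from the growing list, with 84.0 kb. For the other quiescent peaks the nearest RB knockdown peak that did not itself overlap was at 9.10 kb, and the nearest such growing peak at 61.6 kb. Members thus had more distant neighbours than the other quiescent peaks in both lists, a description only, since these lists chose the members.

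Within 50 kb of the summit the other quiescent peaks had on average 4.82 RB knockdown peaks, their own partners included, and members had 2.48. No RB knockdown peak at all lay in that window for 20.1% of members (18.9% to 21.3%). The nearest RB knockdown peak was over 100 kb away for 388 members (8.80%) and over 1 Mb away for 28. The most remote member, on chromosome 13 from 68755968 to 68756425, lay 1727221 bp from any call of another state, and it was small, with 17 tags and an FDR of 36.2%. Further quiescent peaks within 50 kb averaged 0.895 around members and 1.07 around the other quiescent peaks.

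**Figure D4:**
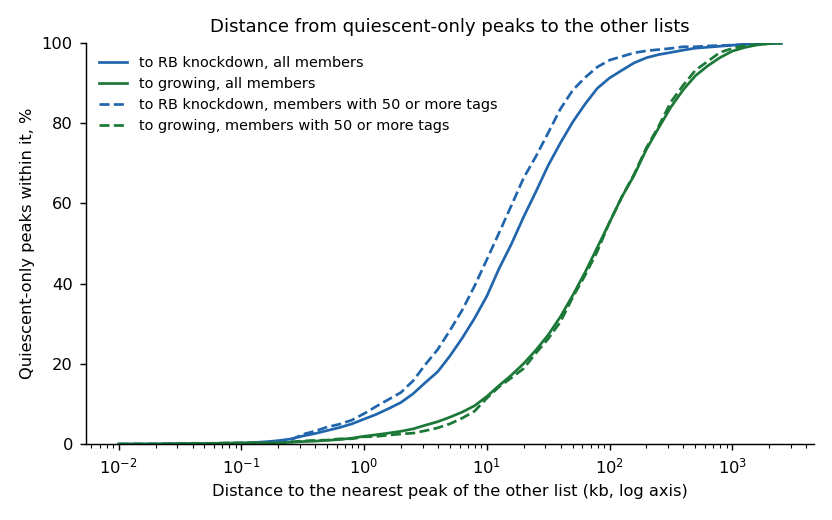
Curves give the percentage of quiescent-only peaks (vertical) whose nearest peak in the RB knockdown list (blue) or the growing list (green) lay within the distance on the horizontal log axis in kb, for all members (solid) and members with at least 50 tags (dashed). At 10 kb the blue curves stand at 36.8% and 46.0% and the green curves at 11.9% and 11.4%.

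As a whole, members were spread more evenly over chromosomes than the other quiescent, the growing or the RB knockdown peaks. Their density ran from 1.19 per Mb on chromosome 20 to 2.01 per Mb on chromosome 17, a 1.69-fold range. That of the other quiescent peaks ran from 0.953 per Mb on X to 4.16 per Mb on chromosome 17, a 4.36-fold range. Growing peaks had a 4.10-fold range and RB knockdown peaks a 4.49-fold range, the latter with its lowest density on X. Over the 22 autosomes the ranges were 1.69-fold for members and 3.36-fold for the other quiescent peaks. They were 4.10-fold for growing and 2.65-fold for RB knockdown peaks. Each span ran from position 1 to the last peak. On chromosomes 13, 14, 15, 21 and 22 it thus included a peak-free start of 9.79 to 19.1 Mb. Densities there would be higher without it. Chromosome 22 held 86 members over 49.5 Mb, of which the first 15.9 Mb had no peak. Without that start its density of members would exceed that of chromosome 17, and the range of members would be wider than 1.69-fold. Members also exclude, by rule, peaks that overlap the growing or RB knockdown lists, so these contrasts are descriptions. On chromosomes 16, 17, 19 and 22, a set known from earlier results to be rich in peaks, lay 11.1% of members (10.2% to 12.1%), 16.4% of the other quiescent peaks (15.4% to 17.3%) and 9.30% of the sequence spanned.

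Ranges were also compared among peaks of like size. Below 50 tags the density of members had a 1.69-fold range and that of other quiescent peaks a 3.85-fold range. At 50 tags or more the ranges were 4.84-fold and 7.62-fold with X, the lowest in both, and 2.06-fold and 3.58-fold over the 22 autosomes. With an FDR of at most 5% the range was 11.2-fold for 278 members and 5.49-fold for 1538 other quiescent peaks. The range of members rests on small counts. It ran from 0.0160 per Mb on chromosome 20, which spans 62.4 Mb, to 0.180 per Mb on chromosome 15. The group of 23 on chromosome 15 alone held 7 of these members. The reversed order is therefore not read as a difference in evenness. Against the number of protein-coding genes per Mb, counted from RefSeq (GRCh38.p14) by chromosome, the density of other quiescent peaks had Pearson r = 0.90 and Spearman rho = 0.87 over 23 chromosomes. For members these were 0.62 and 0.39, and for members with at least 50 tags 0.21 and 0.26. Without chromosomes 17 and 19, the most gene-rich, Pearson r was 0.27 for members and 0.82 for the other quiescent peaks. Among peaks with an FDR of at most 5% r was -0.12 for 278 members and 0.94 for 1538 others. Chromosomes are not replicates and share the library and the base composition of gene-rich sequence. The growing and RB knockdown lists, which by rule split members from the others, were themselves denser on gene-rich chromosomes (Pearson r = 0.94 and 0.79). These values are therefore descriptions.

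The share of quiescent peaks that were quiescent-only accordingly varied by chromosome. It was lowest on chromosome 19, at 31.3% (26.6% to 36.3%, 116 of 371), and on chromosome 17, at 32.6% (28.4% to 36.9%). It was highest on X, at 56.3% (50.8% to 61.6%, 189 of 336), and stood at 53.1% on chromosome 21 and 50.9% on chromosome 13. Members on X were small. Only 15 of the 189 held at least 50 tags, 7.94% (4.51% to 12.8%), against 23.1% (21.8% to 24.4%) on the autosomes, and their median was 23 tags against 33. Their median fold enrichment was 6.43 on X and 6.26 on the autosomes. The other quiescent peaks on X were small too, with a median of 45 tags against 70.

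Along the chromosomes the share of quiescent-only peaks ran from 38.6% to 44.6%. Within 1 Mb of a chromosome end 41.6% of quiescent peaks were quiescent-only (36.1% to 47.2%), and 44.6% (43.0% to 46.2%) were so at 40 Mb or more from it. The shares in the 5 windows between ran from 38.6% to 43.5%, and their intervals overlapped both. Within 5 Mb of an end lay 8.401% of the members with at least 50 tags (6.75% to 10.3%), against 11.2% (10.3% to 12.1%) of all members and 12.02% (11.2% to 12.9%) of the other quiescent peaks.

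**Figure D5:**
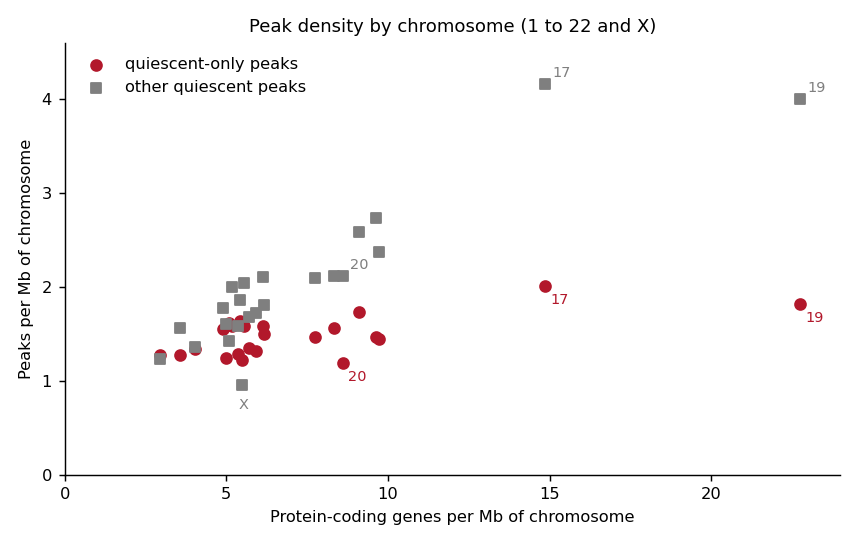
Each chromosome from 1 to 22 and X is plotted by its protein-coding genes per Mb (horizontal) and its peaks per Mb (vertical). Both use the span up to the last peak, peak-free stretches included. Quiescent-only peaks are in red and other quiescent peaks in grey. The red points stay between 1.19 and 2.01 per Mb, while the grey points run from 0.953 to 4.16 per Mb.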

How the data were processed

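Peak lists of growing, quiescent and RB knockdown senescent IMR90 cells were analysed, 1 library each. The submitters' processing notes name Bowtie and hg18 (Bowtie version not given in the sources used here). Peak calling by the authors used MACS 1.4.1 (build 20110627), separately for each library and against a common control, with a p cutoff of 1e-05 and at most 2 tags per position, per the file headers. The caller's fragment length was 125 bp for RB knockdown but 200 bp for the other lists, which can change widths and numbers of peaks. Which labelled sample was the control is not given in the headers. The deposited values per peak are the tag count, the fold enrichment (a linear ratio to local background), the FDR in percent and a score, 10 times the negative log10 of p; they are the authors' own.

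Overlaps, distances (edge to edge) and densities were computed with Python 3.11.15, numpy 2.4.6, pandas 2.3.3 and scipy 1.17.1, after the overlap code was tested on simulated peaks. Chromosome lengths were approximated by the end of the last peak in any list, so peak-free stretches counted as length. Intervals are 95% exact (Clopper-Pearson) and cover counting error only, since neighbouring peaks are not independent. The members, lists and limits were chosen with earlier results of these data known. Regions were named by rule: among members with at least 50 tags, the 10 highest by fold enrichment, the 5 highest by tags and by score, the widest, the members nearest to and farthest from another list, and the densest 1 Mb bin. The chromosome 8 bin, the member on chromosome 18 and other single regions of small counts were added after their values were seen. Alternatives changed the overlap, the thresholds and the lists compared.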

Additional observations from a re-analysis of the deposited data

How the results depend on the processing

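The number of quiescent-only peaks depended on the thresholds. It was 1023 (36.7% of quiescent peaks) when all 3 lists were limited to a significance score of 100 or more. With the threshold on the quiescent list alone it was 518 (18.6%) at that score, 278 (15.3%) when the FDR was 5% or lower and 207 (22.04%) when fold enrichment was 10 or more, and the subset with at least 50 tags then numbered 335, 219 and 95. Against the growing list alone 8811 peaks (86.2%) were without overlap, 4118 of them with at least 50 tags, and against the RB knockdown list alone the share was 45.1%. With the RB knockdown list at the length of the growing list the share was 63.8%, with 2202 at 50 tags or more. Reciprocal overlap of at least 50% gave 57.1% and 1994, summits within 200 bp gave 52.9% and 1646, and widening the other lists by 1000 bp gave 39.8%.

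The following values are for the subset with at least 50 tags, a score of 100 or more, an FDR of 5% or lower and the summit rule, in that order. Median fold enrichment was 5.805, 8.74, 9.86 and 6.07. Median width was 1380.5, 1139.5, 1187 and 956 bp. The median distance of the summit from the midpoint was 11.96%, 8.70%, 8.48% and 10.5% of the width. The share with a peak of another list within 10 kb was 49.8%, 46.5%, 43.9% and 53.0%, and 7.67% of all members had one within 1 kb. Another member within 100 kb was found for 20.6%, 12.2%, 7.19% and 49.6%, against 42.6% of all members, and within 10 kb for 10.5%; smaller sets have fewer neighbours by construction. The share on chromosomes 16, 17, 19 and 22 was 9.92% in the subset, 8.99% at an FDR of at most 5% and 12.4% under the summit rule.

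No paired analysis was possible because each state had 1 library and no result came from a test. No library was left out, for the same reason. GC content, E2F motif and gene start results were not run, since no genome or annotation of hg18 was used here. Of the 4409 members, 3421 held fewer than 50 tags. Whether depth or counting error bears on their absence from another list was not tested.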
